A study of Mus musculus with 6 samples.

Results

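The genes described here are those of the cytosolic ribosomal proteins, the protein part of the machine that translates messenger RNA outside mitochondria. They were taken by symbol, as every gene named Rpl or Rps followed by a digit, with Rplp0, Rplp1, Rplp2 and Rpsa. Rps6k kinases, symbols containing -ps and Rps4y were left out, as were probe sets that name more than 1 gene. The rule found 69 genes among 22180 on the array, each read from its brightest probe set. They hold 32 large subunit genes, 23 small subunit genes with Rpsa and 3 genes of the ribosomal stalk. The others are 6 variants that resemble another ribosomal protein gene, and 5 further symbols. Those 5 are Rps19bp1, which encodes a protein that binds Rps19, Rps23rg1, Rpl6l, Rpl32l and Rps4l. They are members by symbol only, and RefSeq lists Rpl6l as a pseudogene and Rps4l as a transcribed pseudogene.

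Macrophages were sorted from digested ear skin of Cx3cr1+/gfp mice on the C57Bl/6 strain at 2 weeks of age. In these mice green fluorescent protein replaces 1 copy of Cx3cr1, the fractalkine receptor gene, so that every group carries a single working copy. The CX3CR1high, CX3CR1int and CX3CR1low subsets had 2 samples each, drawn from 2 independent litters, and each sample pooled 4 mice. Values are log2 signals of a microarray, normalised by the authors across arrays, on which 1 unit is a doubling of signal.

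Each ribosome carries 1 copy of nearly every ribosomal protein, and the stalk, which calls in the translation factors, holds several copies of Rplp1 and Rplp2 around Rplp0. Messages of these genes begin with a C and a run of pyrimidines, the 5′ terminal oligopyrimidine (TOP) element, through which the kinase mTOR and the protein LARP1 set their translation as a group. In macrophages, as in other cells, they are among the most abundant messages, and free Rpl5 and Rpl11 bind Mdm2 and so raise p53 when assembly fails.

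RefSeq starts with and without such a run were found among the named members. Which start these cells use was not tested, so a window without a run does not show that the message lacks one. Of 30 with a window at hand, 12 had a run of at least 8 C or T bases, 10 a run of 5 to 7, and 8 none of 5 (Rpl5, Rpl7l1, Rpl9, Rpl26, Rps3a1, Rps4x, Rps13 and Rps15). The 10 shown were chosen after the runs were seen, as examples of each kind, and their shares are not those of the family. The windows run from 15 bases before the RefSeq start to 15 bases from it (GRCm38.p6, transcript strand, 5′ to 3′). Capitals mark runs of at least 5 bases that are all C or T.
Rplp2, chr7:141447636-141447665, plus strand: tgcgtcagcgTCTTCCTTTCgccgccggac
Rps18, chr17:33955651-33955680, minus strand: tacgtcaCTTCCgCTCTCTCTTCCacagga
Rpl28, chr7:4792950-4792979, plus strand: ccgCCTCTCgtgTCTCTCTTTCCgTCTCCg
Rpl27a, chr7:109519180-109519209, plus strand: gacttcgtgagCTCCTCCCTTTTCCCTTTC
Rps27, chr3:90213634-90213663, minus strand: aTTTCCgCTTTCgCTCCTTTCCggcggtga
Rpl4, chr9:64173372-64173401, plus strand: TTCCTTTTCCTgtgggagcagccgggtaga
Rpsa, chr9:120127751-120127780, plus strand: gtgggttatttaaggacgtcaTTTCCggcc
Rplp0, chr5:115559452-115559481, plus strand: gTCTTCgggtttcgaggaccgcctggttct
Rpl26, chr11:68901551-68901580, plus strand: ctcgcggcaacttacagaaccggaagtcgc
Rps4x, chrX:102189377-102189406, minus strand: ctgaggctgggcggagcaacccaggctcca
In Rplp2, Rps18, Rpl28, Rpl27a and Rps27 a run of at least 8 bases lies across the annotated start. In Rpl4 it lies before the start, and in Rpsa and Rplp0 no run in the window reaches 8 bases. Rpl26 and Rps4x, shown because they lay furthest above CX3CR1low cells in CX3CR1high cells among genes of their subunit, have no run of 5 in these windows.

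RefSeq promoters were found for 54 of the 69 genes, with 63 windows of 250 bases before to 50 bases after a start. A run of at least 8 pyrimidines within 30 bases of the start was present in 54.0% of the 63 windows, against 22.9% of all 32851 promoter windows. The letters CCGGAAG, the core to which ETS factors such as GABP bind, occurred on either strand in 36.5% of the member windows and in 8.86% of all windows. CTCGCGAG occurred in 11.1% against 0.919%, and ATGGCG, part of the YY1 element, in 31.7% against 8.93%. CTTTCC was in 41.3% against 26.6%, GGGCGG in 50.8% against 35.7% and TATAAA in 9.52% against 13.6%. CTTTCC can lie inside a pyrimidine run, so that those counts overlap, and a match of letters is no binding site by itself.

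The genes lay on 19 chromosomes, Rps4x and Rpl39 on the X chromosome. Of the 67 protein-coding members, 22 held a small nucleolar RNA gene within their bounds (32.8%), against 1.76% of 18964 protein-coding genes on the array. These 22 genes hold 44 small nucleolar RNA genes, of which 11 were tested.

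All 10 macrophage markers were above 4.335, the 30th percentile of gene means, below which a gene was treated as dim, and their mean log2 signal was 10.38 to 10.75 across the 6 samples. The mean of 16 tested keratinocyte markers was 5.96 and 6.02 in CX3CR1high, 5.91 and 6.16 in CX3CR1int, and 6.40 and 6.90 in CX3CR1low samples. The mean of 13 fibroblast markers was 6.68 and 6.72 in CX3CR1high, 6.86 and 7.07 in CX3CR1int, and 7.23 and 7.85 in CX3CR1low samples. That of 6 mast cell markers was 4.78 and 4.72 in CX3CR1high, 5.72 and 5.79 in CX3CR1int, and 6.44 and 6.16 in CX3CR1low samples. That of 18 cell cycle genes was 7.28 and 7.71 in CX3CR1high, 7.25 and 7.11 in CX3CR1int, and 6.88 and 6.76 in CX3CR1low samples. Among these markers 3 mast cell genes and 1 keratinocyte gene were called lower in CX3CR1high than in CX3CR1low cells, and all 18 cell cycle genes were higher with none called. With the replicate block 1 cell cycle gene was called, as were 6 fibroblast genes (0 without it), 2 keratinocyte genes and 3 mast cell genes. The mean of 5 endothelial markers was 4.85 to 5.47 and that of 6 T and NK cell markers 5.41 to 5.76. Of these 6 Il7r was bright, at 9.20 and 9.33 in CX3CR1high, 8.97 and 8.61 in CX3CR1int, and 8.08 and 8.91 in CX3CR1low samples, and the other 5 lay between 4.30 and 6.13. Emcn, Kdr, Tek, Cd3g and the mast cell gene Ms4a2 were dim. Replicates differed in sex transcripts: the female transcript Xist was at 7.39 to 7.97 in replicates 1 and at 10.99 to 11.39 in replicates 2. The part of these differences in the results below was not tested, and in sorted pools a change in the mix of cells and a change per cell cannot be told apart.

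Ribosomal protein genes gave bright signals as a group. Their median log2 signal over the 6 samples was 9.14, against 5.12 for all genes, and 50.7% of members but 4.67% of all genes reached 9. Of the 100 brightest genes 18 were members. The spread was wide: 21 members reached 11, and 25 tested members lay under 7. The stalk shows this range, with Rplp1 at 12.48, Rplp0 at 8.34 and Rplp2 at 4.61. Probe sets differ in how well they bind, so these signals do not rank the transcripts. Some members that look dim here had brighter probe sets among those left out for naming more than 1 gene. Such sets were at 11.80 for Rpl34 (6.49 in the set used), 11.98 for Rps27 (6.40) and 7.07 for Rplp2. The Rplp2 set also names the small nucleolar RNA gene Snora52. Others were dimmer than the set used, as for Rpl28 (6.34), and all may include signal of the other genes. The dimmest members were Rpl32l (2.34), Rpl10l (2.63), a retrocopy known from testis, and Rpl22l1 (3.87), a relative of Rpl22. These 3 lay below the dim level and were not tested, which left 66 of 69 members. The members with the least spread over the 6 samples were Rpl28 (SD 0.03, between 11.95 and 12.05) and Rpl19 (SD 0.06, between 11.88 and 12.04).

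The mean over the 66 members was 8.84 and 8.86 in CX3CR1high samples, 8.66 and 8.84 in CX3CR1int samples, and 8.73 and 8.71 in CX3CR1low samples. The CX3CR1high samples lay above both CX3CR1low samples, and the CX3CR1int samples lay apart, replicate 1 lowest of all and replicate 2 level with CX3CR1high replicate 1. CX3CR1int replicate 1 held the lowest of the 6 values for 27 members (40.9%), against 14.1% of all genes tested. The CX3CR1low samples held the highest value for 3 and 1 members (4.55% and 1.52%), against 17.7% and 14.1% of all genes. CX3CR1high replicates 1 and 2 held it for 21 and 15 members (31.8% and 22.7%), against 21.1% and 14.0% of all genes. The median gap between replicates of a member was 0.15 in CX3CR1high, 0.25 in CX3CR1int and 0.11 in CX3CR1low samples, against 0.20 in each subset for all genes.

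**Figure D1:**
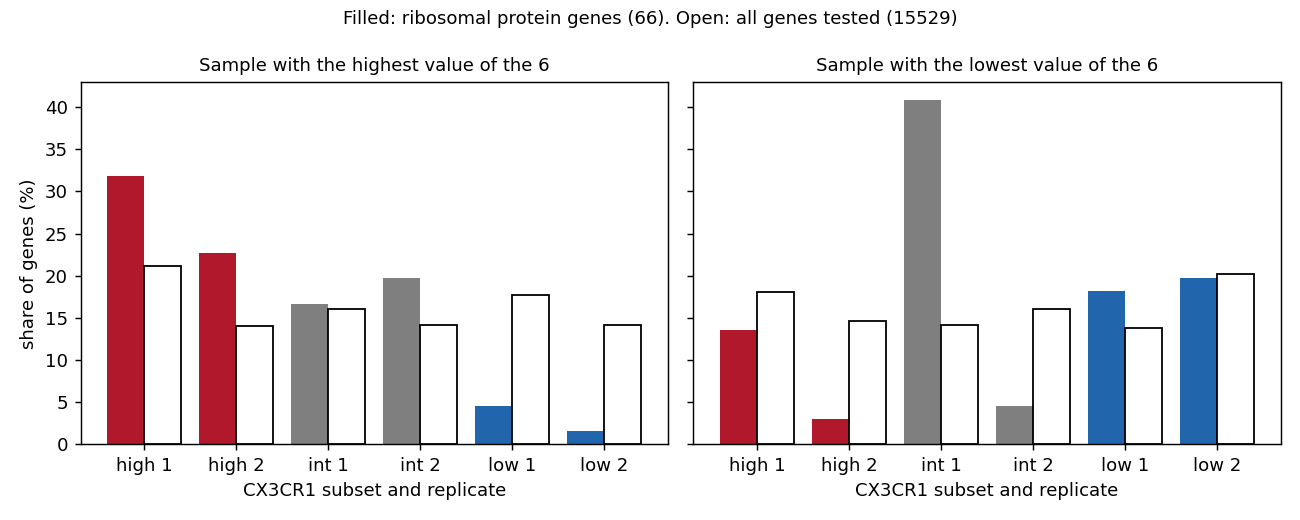
Share of genes (%) for which each sample held the highest (left) or the lowest (right) of the 6 values, for the 66 ribosomal protein genes (filled bars, coloured by subset) and for all 15529 genes tested (open bars). CX3CR1int replicate 1 was lowest for 40.9% of the members and 14.1% of all genes, and CX3CR1low replicate 2 was highest for 1.52% and 14.1%.

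Between CX3CR1high and CX3CR1low cells the ribosomal protein genes differed by little, mostly in the same direction. The median log2 difference of the 66 tested members was 0.14, against 0.00 for all genes tested (0.005 before rounding). Of the members 53 were higher and 12 lower in CX3CR1high cells (80.3% higher, against 50.7% of all genes). Counting members by direction, here and in the other comparisons, was chosen after seeing the data. None passed the test (limma, Benjamini-Hochberg adjusted over 15529 genes, smallest adjusted p = 0.370), with 0.399% of all genes called, 0.213% higher and 0.187% lower. At an unadjusted p under 0.05 there were 3 members, all higher, or 4.55%, against 9.65% of all genes. Both CX3CR1high samples exceeded both CX3CR1low samples in 30 members (45.5%), where 19.8% of all genes did so. In 2 members, Rpl28 and Rps16, both were below (3.03%, against 18.4% of all genes). Without the 5 further symbols 51 of 62 were higher, 29 without overlap. Members were read from the same arrays and are not independent of each other.

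**Figure D2:**
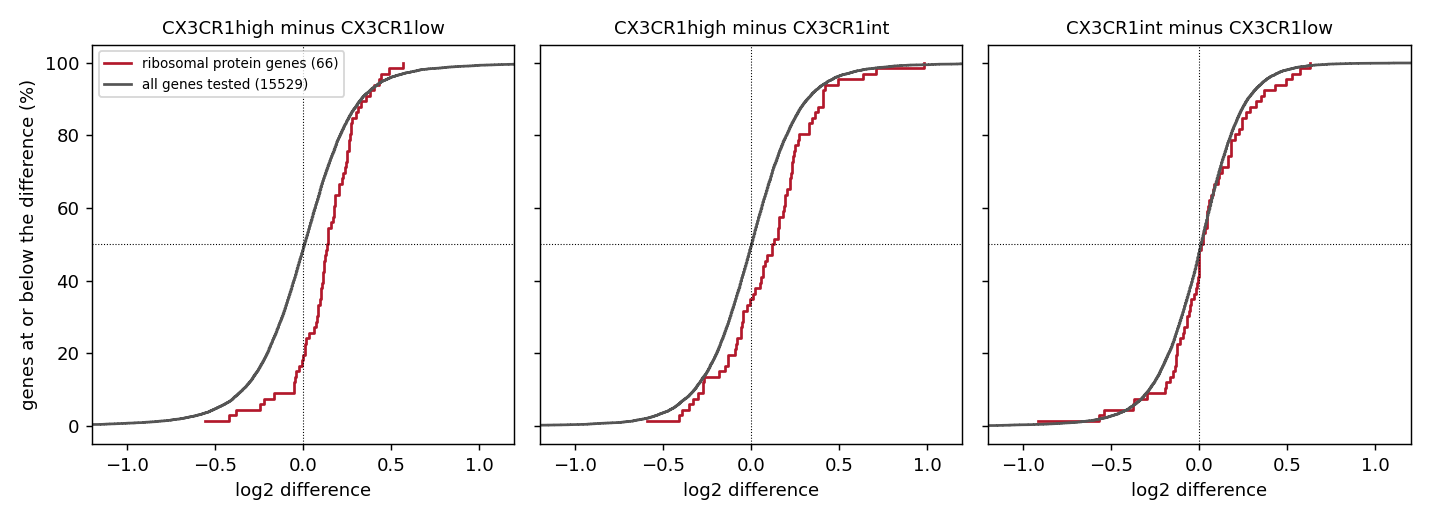
Cumulative share of genes (%) against the log2 difference in the 3 comparisons, for the 66 ribosomal protein genes (red) and all 15529 genes tested (grey). The members' median was 0.14 for CX3CR1high minus CX3CR1low, 0.12 for CX3CR1high minus CX3CR1int and 0.01 for CX3CR1int minus CX3CR1low, where the curves cross the 50% line.

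In the stalk, the 3 genes differed in sign. Rplp0, the anchor of the stalk, was at 8.72 and 8.52 in CX3CR1high, 7.96 and 8.29 in CX3CR1int, and 8.38 and 8.15 in CX3CR1low samples. Its 2 CX3CR1high values were the highest of the 6, with a difference from CX3CR1low cells of 0.35 ± 0.19 (SE, adjusted p = 0.618). The second Rplp0 probe set differed by -0.085, and the mean of both by 0.135. Rplp1, the first of the acidic stalk proteins, was at 12.65 and 12.28 in CX3CR1high, 12.07 and 12.60 in CX3CR1int, and 12.74 and 12.52 in CX3CR1low samples. The groups overlapped, and the difference was -0.17 (95% interval -0.59 to 0.26). Rplp2, its partner, was at 4.65 and 4.69 in CX3CR1high, 4.84 and 4.69 in CX3CR1int, and 4.17 and 4.63 in CX3CR1low samples, close to the dim level.

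Of the large subunit genes, Rpl26 and Rpl32 were highest above CX3CR1low cells. Rpl26, which in human cells also binds the p53 message, was at 6.77 and 6.55 in CX3CR1high, 6.35 and 6.48 in CX3CR1int, and 6.39 and 5.80 in CX3CR1low samples. Its difference between CX3CR1high and CX3CR1low cells was 0.57 ± 0.23 (SE, adjusted p = 0.472), and the 2 CX3CR1low samples lay 0.59 apart by themselves. A brighter probe set that Rpl26 shares with another gene (mean signal 10.96) differed by 0.30. Rpl32 was at 11.87 and 11.74 in CX3CR1high, 10.93 and 11.41 in CX3CR1int, and 11.23 and 11.41 in CX3CR1low samples. Both CX3CR1high samples stood above the other 4, with a difference from CX3CR1low cells of 0.48 ± 0.17 (SE, adjusted p = 0.370). Rpl3, which shapes the peptidyl transferase centre, differed by 0.44 and Rpl9 by 0.43, and neither passed (adjusted p = 0.582 and 0.667). With the mean of its probe sets Rpl9 differed by 0.245. Rpl5 and Rpl11, which bind 5S ribosomal RNA and Mdm2, differed by -0.05 and 0.27.

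Among small subunit genes Rps4x was the highest above CX3CR1low cells. It was at 11.13 and 11.09 in CX3CR1high, 11.12 and 10.79 in CX3CR1int, and 10.70 and 10.72 in CX3CR1low samples. The CX3CR1low samples were the lowest pair, and the difference from CX3CR1high cells was 0.40 ± 0.14 (SE, adjusted p = 0.383). Rps4x is X-linked. Its replicates, of unlike Xist level, were nearly equal in CX3CR1high and in CX3CR1low cells but not in CX3CR1int cells (11.12 and 10.79), and the part of sex in its difference was not tested. Rps6, the target of S6 kinases that is read as a mark of mTOR activity, was at 11.84 and 11.90 in CX3CR1high, 11.64 and 11.66 in CX3CR1int, and 11.68 and 11.62 in CX3CR1low samples. The message of Rps6 was thus higher by 0.22 in CX3CR1high than in CX3CR1low cells, without overlap. Its 95% interval ran from -0.01 to 0.45 (limma, adjusted p = 0.549). A dimmer probe set that Rps6 shares with a pseudogene differed by -0.07. Rpsa, also known as the laminin receptor, differed by 0.08 (95% interval -0.26 to 0.43).

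Few members were lower in CX3CR1high cells. Rps15 had 5.27 and 4.56 in CX3CR1high, 4.95 and 4.16 in CX3CR1int, and 5.13 and 5.82 in CX3CR1low samples. Its difference of -0.56 lay within a spread that was the widest of all tested members over the 6 samples (SD 0.58). Rps16 had 5.11 and 5.52 in CX3CR1high, 5.95 and 5.50 in CX3CR1int, and 5.86 and 5.61 in CX3CR1low samples, a difference of -0.42 without overlap (adjusted p = 0.619). A brighter probe set that Rps16 shares with a pseudogene went the other way, without overlap, by 0.19, with 11.75 and 11.71 in CX3CR1high and 11.52 and 11.56 in CX3CR1low samples. Rps4l (-0.38), Rpl7l1 (-0.25) and Rpl6 (-0.22) were lower too, with overlapping samples.

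The intervals show what sizes of difference the arrays left room for. In 62 of 66 members (93.9%) the 95% interval for CX3CR1high minus CX3CR1low lay within 1 log2 unit of 0, against 90.2% of all genes. Intervals within a 1.5-fold change held for 33 members (50%), against 42.0% of all genes. The 35 members with a signal of at least 9 were the tightest: all 35 intervals lay within 1 unit, 26 of them within 1.5-fold (74.3%), and 31 of the 35 were higher with a median of 0.12. Bright genes were tighter in general. Of all 1036 tested genes with such a signal 92.9% lay within 1 unit and 59.0% within 1.5-fold, and 48.3% were higher with a median of -0.005. Among the 31 dimmer members 22 were higher, with a median of 0.14. For Rpl19 the interval ran from -0.20 to 0.27, for Rpl4 from -0.25 to 0.23 and for Rps18 from -0.10 to 0.35.

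**Figure D3:**
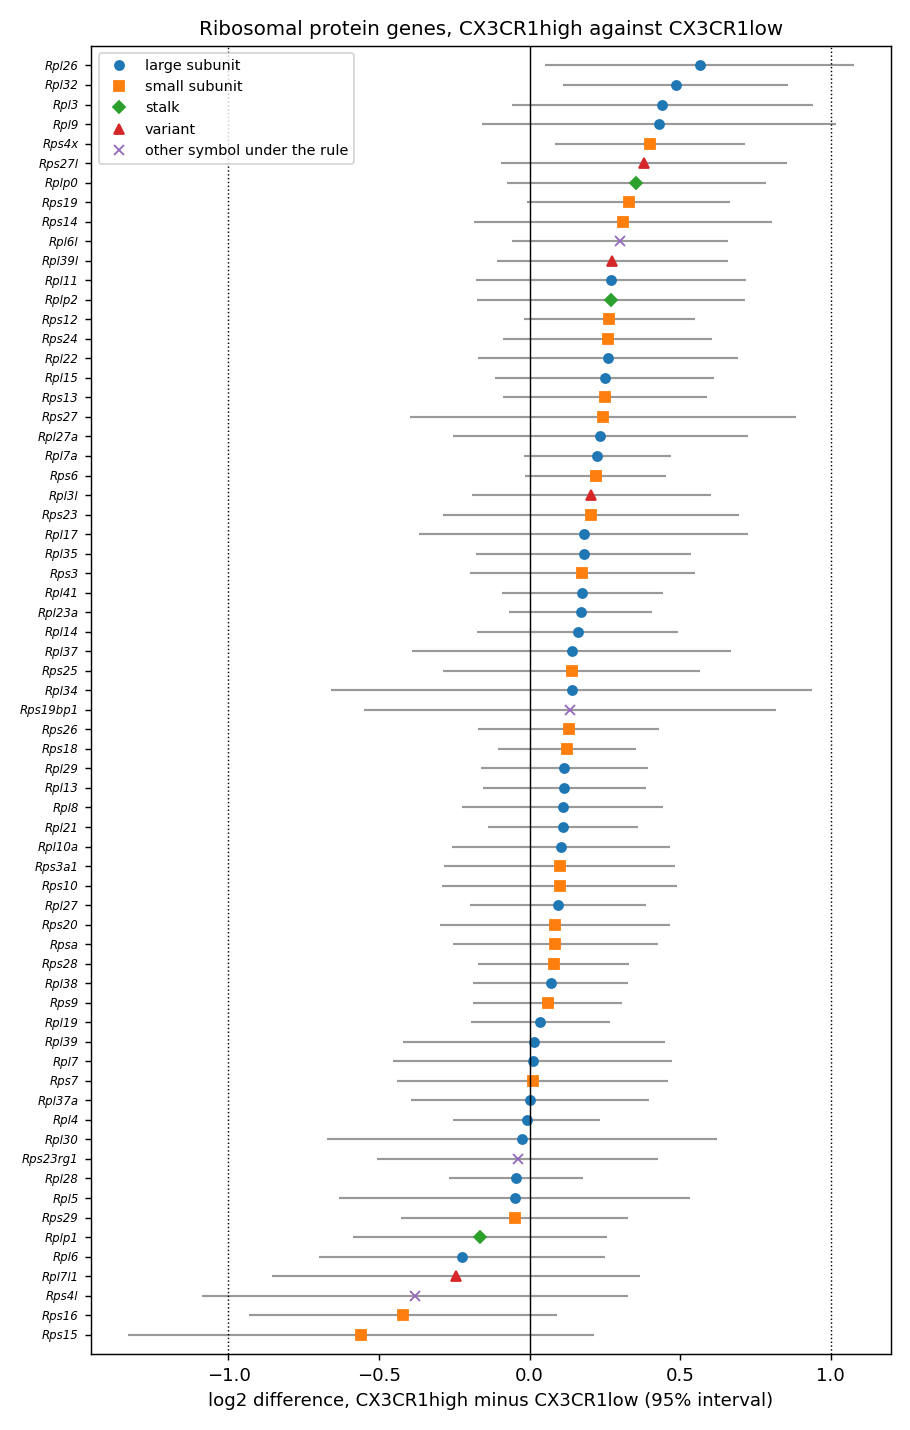
Log2 difference of CX3CR1high minus CX3CR1low cells for the 66 tested members, with 95% intervals (bars), ordered by difference. Symbols give the class of the gene, and dotted lines mark 1 log2 unit either way. Points run from -0.56 (Rps15) to 0.57 (Rpl26), and the intervals of 3 members, Rpl26, Rpl32 and Rps4x, do not cross 0.

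Between CX3CR1high and CX3CR1int cells 43 members were higher and 23 lower (65.2% higher, against 49.8% of all genes). The median was 0.12 (0.00 for all genes). None was called (limma, smallest adjusted p = 0.207), with 0.142% of all genes called, 0.0773% higher and 0.0644% lower. Of the members 5 had an unadjusted p under 0.05, all higher (7.58%, against 7.89% of all genes). Both CX3CR1high samples were above both CX3CR1int samples in 18 members (27.3%, against 18.3% of all genes) and below in 7 (10.6%, against 18.5%). This median rested on 1 sample: it was 0.007 without CX3CR1int replicate 1 and 0.20 without replicate 2.

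Rpl3 stood furthest apart. It was at 9.88 and 9.53 in CX3CR1high, 9.0 and 8.45 in CX3CR1int, and 9.39 and 9.14 in CX3CR1low samples, so that the 3 subsets did not overlap. Its difference of 0.98 ± 0.22 (SE, 1.97-fold) between CX3CR1high and CX3CR1int cells had an adjusted p of 0.207. With replicate numbers fitted as a block it was 0.0537. The other Rpl3 probe sets, of lower signal, differed by 0.44 and 0.49 in that direction, and the mean of all 3 by 0.637. Rpl34 followed at 0.71, with 6.84 and 6.71 in CX3CR1high, 5.54 and 6.59 in CX3CR1int, and 7.01 and 6.26 in CX3CR1low samples. Its 2 CX3CR1int values lay 1.05 apart, the largest gap of a member in that subset. The brighter probe set that Rpl34 shares with a pseudogene differed by 0.435. Rpl32 differed by 0.64 (adjusted p = 0.322), Rplp0 by 0.49 (0.228 with the mean of its probe sets) and Rps14 by 0.42. In the other direction stood Rpl7l1 (-0.59), Rps16 (-0.41), Rpl27a (-0.40), Rpl37 (-0.35) and Rps3a1 (-0.33). With the mean of its probe sets Rps3a1 differed by -0.012. The brighter probe sets that Rps16 and Rpl27a share with other genes did not follow, at 0.06 for Rps16 and at 0.04 and 0.96 for Rpl27a. The Rpl27a set at 0.96 also names the small nucleolar RNA gene Snora3.

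Between CX3CR1int and CX3CR1low cells 34 members were higher and 30 lower (51.5% higher, against 51.4% of all genes). The median was 0.01, as for all genes (0.01). None was called (limma, smallest adjusted p = 0.919), with 0.00644% of all genes called. At an unadjusted p under 0.05 there were 4 higher and 2 lower members (9.09%, against 4.89% of all genes). Both CX3CR1int samples were above both CX3CR1low samples in 17 members (25.8%, against 16.6%) and below in 5 (7.58%, against 14.8%). Here too the direction followed the sample kept: the median was 0.11 without CX3CR1int replicate 1 and -0.09 without replicate 2. Rps13 was at 11.40 and 11.42 in CX3CR1int and 10.76 and 11.01 in CX3CR1low samples, 0.53 higher (adjusted p = 0.919). Rpl27a (0.63), Rpl6l (0.57), Rpl37 (0.49) and Rps3a1 (0.43) were also higher, and Rps15 (-0.92), Rpl34 (-0.57), Rpl3 (-0.54), Rpl5 (-0.38) and Rps7 (-0.37) lower. With the mean of probe sets the difference was 0.182 for Rps3a1 and -0.202 for Rpl3. The brighter probe set that Rpl34 shares with a pseudogene differed by -0.195. The Rpl27a value came from a dim probe set, and brighter ones shared with other genes differed by 0.09 and -0.565. The set at -0.565 also names the small nucleolar RNA gene Snora3. The 3 comparisons share their samples and are not independent.

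**Figure D4:**
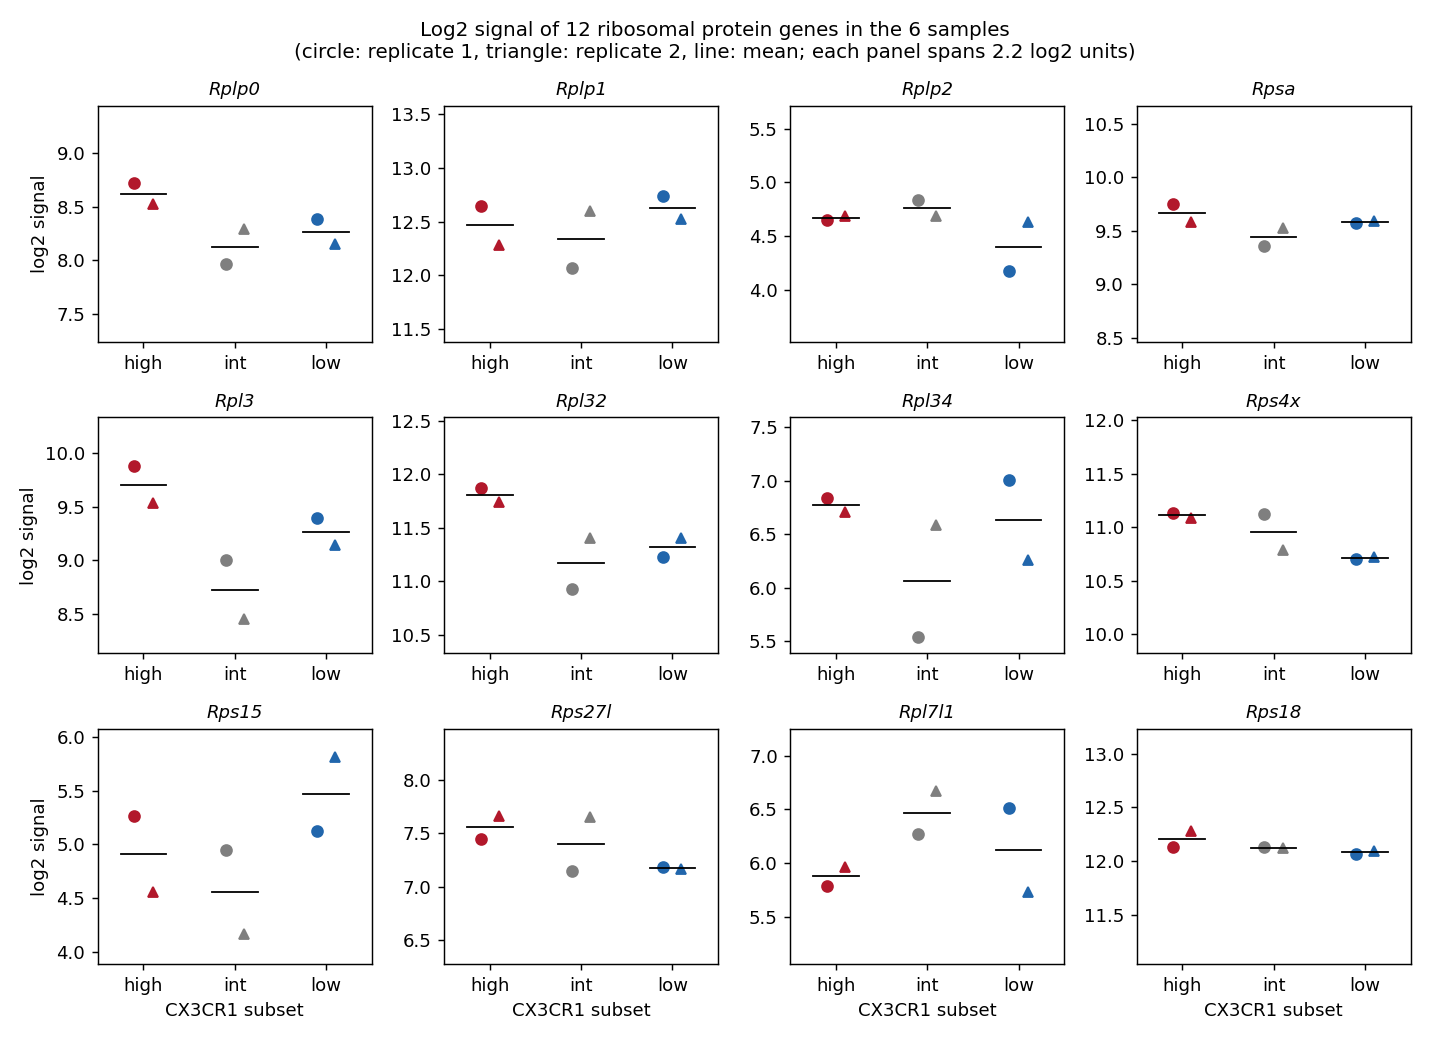
Log2 signal of 12 ribosomal protein genes in the CX3CR1high, CX3CR1int and CX3CR1low samples (circles replicate 1, triangles replicate 2, lines the mean of 2), each panel on a scale of equal length around its own mean. Rpl3, Rpl32 and Rplp0 had both CX3CR1high samples on top, Rps15 and Rpl34 varied most between replicates, and Rps18 stayed between 12.07 and 12.28.

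Variants were set beside the gene they resemble, except Rpl10l, whose partner Rpl10 was found only on shared probe sets. Rps27l, a p53 target that resembles Rps27, was at 7.45 and 7.66 in CX3CR1high, 7.15 and 7.65 in CX3CR1int, and 7.18 and 7.17 in CX3CR1low samples. It was 0.38 higher in CX3CR1high than in CX3CR1low cells (95% interval -0.10 to 0.86), and Rps27 0.24 higher, so that both lay on the same side. Rpl39l, known from testis, was 0.27 higher and Rpl39 0.015, and Rpl3l, known from striated muscle, was 0.20 higher beside 0.44 for Rpl3. Rpl7l1, whose product has a part in ribosome assembly, was at 5.79 and 5.96 in CX3CR1high, 6.27 and 6.67 in CX3CR1int, and 6.51 and 5.73 in CX3CR1low samples. Its samples overlapped between CX3CR1high and CX3CR1low cells, while Rpl7 differed by 0.01. Rpl22 was 0.26 higher, and its relative Rpl22l1 was dim in all 6 samples, between 3.65 and 4.12. No variant was called in any comparison.

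Small nucleolar RNAs, cut from introns of their host messages, guide the modification of ribosomal RNA, and 11 of those inside members were tested. None was called in any comparison (limma, smallest adjusted p = 0.0958). At an unadjusted p under 0.05 there were 1 for CX3CR1high minus CX3CR1low, 5 for CX3CR1high minus CX3CR1int and 5 for CX3CR1int minus CX3CR1low. The shares over all genes were 9.65%, 7.89% and 4.89%. Their medians in the same order were 0.06, 0.59 and -0.48. Snora33, which lies in Rps12, was at 9.11 and 9.30 in CX3CR1high, 7.58 and 8.18 in CX3CR1int, and 9.32 and 8.97 in CX3CR1low samples. Both CX3CR1int samples were below the other 4, with a difference of CX3CR1high from CX3CR1int cells of 1.32 ± 0.23 (SE, adjusted p = 0.0958). In Rpl3, whose message was also lowest in CX3CR1int cells, Snord83b differed by 1.05 and Snord43 by 0.81 in the same comparison (adjusted p = 0.504 and 0.537). Snord15a, in Rps3, differed by -1.05, with 5.39 and 5.54 in CX3CR1high, 7.21 and 5.83 in CX3CR1int, and 5.54 and 5.06 in CX3CR1low samples. Hosts did not all go with the small nucleolar RNA inside them. Between CX3CR1int and CX3CR1low cells Snora33 differed by -1.265 and its host Rps12 by -0.005. In that comparison Snord72 differed by -0.86 and its host Rpl37 by 0.495, and Snord73a by -1.25 and its host Rps3a1 by 0.43. These small nucleolar RNAs were named after their values were seen.

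Many members have further probe sets, and the family has many near-identical processed copies in the genome, so that a signal may include copies. For the 25 members with more than 1 probe set, the gap between the brightest and the dimmest had a median of 4.55 log2 units and reached 7.52 for Rps18. All probe sets of a gene had the same sign of difference in 15 of the 25 for CX3CR1high minus CX3CR1low, 14 for CX3CR1high minus CX3CR1int and 12 for CX3CR1int minus CX3CR1low. The 2 Rpl23a sets held the same values in every sample, as did some sets of Rps12 and of Rps19, so that their signs could not differ. In Rpsa the brighter set differed by 0.08 between CX3CR1high and CX3CR1low cells and the other by -0.17. A further 57 probe sets named a gene of the rule together with other genes, and 14 genes, such as Rps2 and Rpl23, were found only there. None of the 55 of them that were bright enough to test was called in the fit over all probe sets, and their median for CX3CR1high minus CX3CR1low was 0.15.

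Genes that act with the ribosome gave no call either. Fau, which encodes a ribosomal protein fused to a ubiquitin-like part, was at 12.08 and 12.05 in CX3CR1high, 11.84 and 12.05 in CX3CR1int, and 11.94 and 11.93 in CX3CR1low samples, with CX3CR1int replicate 1 lowest. Of 20 tested genes with TOP messages outside the family, such as elongation factors, 16 were higher and 3 lower in CX3CR1high than in CX3CR1low cells, with a median of 0.06 and no call. Eef1b2, an exchange factor of elongation, was 0.28 higher (adjusted p = 0.535), and Snhg1, a host of small nucleolar RNAs, 0.34 higher (0.84 against CX3CR1int cells, adjusted p = 0.275).

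Synthesis and control of ribosomes showed no common direction between CX3CR1high and CX3CR1low cells. The median of 71 ribosome assembly genes was 0.01, that of 21 genes of polymerase I and its factors -0.01, that of 15 initiation genes -0.03 and that of 19 genes of nutrient signalling -0.09. The median of 70 mitochondrial ribosomal protein genes was 0.04, with 37 higher and 33 lower, and that of 19 genes of ribosome quality control and p53 was 0.00. None of these lists held a called gene in any of the 3 comparisons (limma). At an unadjusted p under 0.05 between CX3CR1high and CX3CR1low cells there were 3 assembly genes, 3 mitochondrial ribosomal protein genes, 2 of polymerase I and 2 of nutrient signalling, and 0 in the other lists, against 9.65% of all genes. Rptor, a subunit of mTOR complex 1, was 0.48 higher (adjusted p = 0.432), and Mxd1, an antagonist of Myc, differed by -0.40 (adjusted p = 0.488). Dkc1, the pseudouridine synthase of ribosomal RNA, was 0.49 higher (adjusted p = 0.392), and Polr1a, the largest subunit of polymerase I, 0.60 higher (adjusted p = 0.417). Taf1d, a factor of polymerase I initiation that is also a host of small nucleolar RNAs, was at 9.60 and 10.30 in CX3CR1high, 8.74 and 9.37 in CX3CR1int, and 8.29 and 9.67 in CX3CR1low samples. Replicate 1 was the lower in each subset, and CX3CR1low replicate 2 lay above CX3CR1high replicate 1, so the difference of 0.97 came with overlapping samples (adjusted p = 0.517, and 0.0798 with the replicate block).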

How the data were processed

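Per the submitters' processing notes, the authors made the deposited log2 signals by RMA, using Expression Console 1.4 of Affymetrix. RNA was amplified by a whole-transcriptome kit, per the labels. RMA makes the arrays alike in distribution, so that a change in RNA per cell is not seen, and whether the brightest signals were near saturation was not tested. All 6 arrays were used. A single symbol was given for 23521 of the 34390 probe sets, and the brightest stood for each of 22180 genes. Genes under the 30th percentile (4.335) were left out, which left 15529. All 69 members were found in RefSeq under the same symbol.

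Differences were fitted in R 4.3.3 with limma 3.58.1 (a mean per subset, intensity trend, two-sided) and called at an adjusted p under 0.05. The prior added 5.77 degrees of freedom to the 3 residual ones, and 2 arrays per subset limit the precision. The fit was tested on simulated data with independent noise and no replicate effect, which leaves out the likeness of same-numbered replicates seen here. The members and lists were chosen with earlier results of these data known. The named members were the 5 largest differences each way per comparison, the extremes of signal and spread, the stalk, Rpsa, and variants with partners. Rpl11 and Rps6 were named after their values were seen. Lists gave up to 3 genes each by smallest p.

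Deviations of same-numbered replicates from subset means correlated at 0.136 to 0.178 over all genes, and at -0.039 to -0.212 over the members. The labels do not say that a number marks a litter. Same-numbered samples were alike in sex transcripts: the male transcript Eif2s3y was at 7.76 to 8.27 in replicates 1 and at 2.99 to 3.72 in replicates 2. In replicates 1 both Xist and Eif2s3y were above the dim level, and whether those pools held both sexes was not tested. The fit without the block leaves the difference in sex transcripts between replicates in its spread. A fit with the replicate number as a block was run beside each result.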

Additional observations from a re-analysis of the deposited data

How the results depend on the processing

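No member was called under any of the 14 alternatives in any comparison, and none of the 34 named differences. With a filter at the 50th percentile some dim named members gave no value. The count of all genes called did move. With the replicate block it was 154 for CX3CR1high minus CX3CR1low, 47 for CX3CR1high minus CX3CR1int and 0 for CX3CR1int minus CX3CR1low, against 62, 22 and 1 without it. The block changed no call of a member, but changed those of marker genes given above. Without the dim filter the counts were 26, 0 and 0, with every probe set tested 18, 0 and 0, and with only the 2 subsets compared 39, 14 and 0. Without the intensity trend CX3CR1high minus CX3CR1int had 4 and CX3CR1int minus CX3CR1low 0, and with centred arrays CX3CR1int minus CX3CR1low had 0. Leaving out each sample gave 0 to 39, 0 to 17 and 0 calls. The members' median ranged with samples left out from 0.127 to 0.155, from 0.007 to 0.20 and from -0.087 to 0.107, and from 0.13 to 0.152, 0.12 to 0.155 and 0.01 to 0.03 under the other alternatives. The count of members that were higher (53, 43 and 34) was chosen after seeing the data. Over 105 member probe sets, some of them with identical values, it was 83, 74 and 57. With samples left out 50 to 57, 35 to 44 and 26 to 48 of 66 members were higher. With the mean of probe sets Rpsa turned to -0.042 between CX3CR1high and CX3CR1low cells. Between CX3CR1high and CX3CR1low cells Rpl6 ran from -0.50 to 0.05 and Rps4l from -0.925 to 0.165 (both positive without CX3CR1high replicate 1), Rplp1 from -0.35 to 0.02 (without CX3CR1high replicate 2) and Rpl7l1 from -0.635 to 0.145 (without CX3CR1low replicate 1). Rpl5 ran from -0.79 to 0.04 between CX3CR1int and CX3CR1low cells (positive without CX3CR1int replicate 2). The cause was not tested. With 1 sample left in a subset, it is assumed to vary like the others. With 2 arrays per subset, changes under 2-fold could be missed, and larger ones as well. Snora33, for one, differed by 1.325 between CX3CR1high and CX3CR1int cells without a call.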
